A study of Mus musculus with 24 samples.

Results

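Anti-PD-1 was added to entinostat in 4 mammary tumours, which were set against 4 tumours given entinostat without a checkpoint antibody, 8 of the 24 samples of the series. The members were chosen by sample title: ENT+PD1 tumours 1, 2, 5 and 6 and ENT tumours 1 to 4, all on the first of 2 cartridges. A pair of second-cartridge samples whose titles repeat those of ENT+PD1 1 and 2 was left out. RNA of 750 immune-related genes was counted with nCounter probes, and 601 genes with a normalized value of 20 or more in at least 4 of the 24 samples were tested. The other 149, too weak for a test, are given as values only.

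ENT+PD1 mice received entinostat (ENT), which blocks class I histone deacetylases, by mouth at 5 mg/kg every day and a rat antibody to mouse PD-1 (PD1) at 100 µg per mouse, injected into the peritoneum, both for 3 weeks. ENT mice received entinostat at that dose and over those weeks, and the labels do not say whether they also had isotype antibodies. Vehicle mice, used here for comparison, received 0.5% methylcellulose with isotype antibodies by the protocol, or with PBS by the sample descriptions. All were female neu-N mice on the FVB background, aged 7 to 8 weeks at implantation, and carried tumours of NT2.5, a line from a spontaneous mammary tumour of this model, grown from 50000 cells in the mammary fat pad and treated from 3 days after implantation. The neu-N mouse carries the rat neu gene as a self antigen, so the tumours stand for a tolerant host and a single transplanted line. The labels call the source whole tumour, whereas the extraction text ends with the isolation of immune cells, and the protocol says that studies were run with and without anti-HER2. The groups follow the titles. No label names a separate animal for each sample, so the p-values measure the spread between these samples.

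PD-1 is an inhibitory receptor of activated T cells. Its ligands PD-L1 and PD-L2, on tumour cells, macrophages and dendritic cells, dampen T cell receptor signalling, and antibodies to PD-1 block that contact. Class I deacetylase inhibitors loosen chromatin and are known to change antigen presentation genes and myeloid cells in tumours.

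The 4 ENT+PD1 tumours fell into pairs that matched the form of their titles. Tumours 5 and 6 had 615 and 623 genes at 20 or more and tumours 1 and 2 had 560 and 514, against 510 to 555 in ENT. The median value of the tested genes was 121 in ENT+PD1 5, 140 in ENT+PD1 6, 81.6 in ENT+PD1 1 and 85.7 in ENT+PD1 2, against 76.8 to 85.2 in ENT. ENT+PD1 5 and 6 both exceeded every ENT tumour in 358 of 601 genes (59.6%), and ENT+PD1 1 and 2 both did so in 60 (9.98%). The median difference from ENT was 0.65 log2 units in tumours 5 and 6 and 0.07 in tumours 1 and 2. Results are therefore given for each tumour. The split into pairs was chosen with earlier results of these data known, so values by pair describe it and do not test it. Recovered counts summed to 392124 ± 67674 in ENT+PD1 and 395155 ± 36810 in ENT (SD, n = 4 each; two-sided exact permutation p = 0.971). The scaled negative controls averaged 10.2 ± 2.12 in ENT+PD1 and 7.48 ± 1.42 in ENT (exact permutation p = 0.0857). None of 6 technical measures had an exact permutation p under 0.05 (lowest 0.0857, or 0.286 after Benjamini-Hochberg adjustment), with 0.0286 the smallest p that 4 against 4 allows. Of the markers of the labelled tumour tissue, Epcam, an adhesion protein of epithelial cells, was strong in all 8 samples, at 5721, 5967, 4151 and 3778 in ENT+PD1 1, 2, 5 and 6 and 5761 to 5971 in ENT. Values below are normalized values, counts scaled on housekeeping genes, and fold changes are on the log2(value + 1) scale, which understates those of weak genes.

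Klrk1 and Arg2 were higher in every tumour given entinostat with anti-PD-1 than in any tumour given entinostat alone. They were the only genes of the 601 tested that limma called at an adjusted p under 0.05 (2 genes, 0.333%), and both rose. At an unadjusted p under 0.05 there were 117 genes (19.5%), of which 107 were higher (17.8% of 601) and 10 lower (1.66%). Of all tested genes, 496 (82.5%) had a higher mean in ENT+PD1, and the median change was 0.36. All 4 ENT+PD1 tumours lay above all 4 ENT tumours in 37 genes (6.16%) and below them in 6 (0.998%), 43 genes together (7.15%). This balance was seen on the deposited scaling. The rescalings that follow bring the samples to a common level by construction, so they cannot tell why most genes were higher, which was not tested. With samples rescaled to equal medians 298 genes (49.6%) were higher, 30 higher and 32 lower at an unadjusted p under 0.05, and 10 separated upward and 21 downward. After quantile normalization 270 (44.9%) were higher, 31 higher and 55 lower at an unadjusted p under 0.05, and 11 separated upward and 22 downward. The median change over all genes was then -0.0047 and -0.036, close to 0 as both rescalings impose. Both calls were lost when ENT+PD1 5 or 6 or ENT 1, 2 or 4 was left out (0 called), and the count became 25 (4.16%) without ENT+PD1 1 and 7 (1.16%) without ENT+PD1 2. DESeq2 on the deposited scaling called 53 (8.82%), Arg2 among them, and gave no adjusted p for Klrk1. Limma with sample weights called 174 (29%). With ENT+PD1 5 and 6 alone against ENT it called 226 (37.6%), and with ENT+PD1 1 and 2 alone 0 (17 at unadjusted p under 0.05). These pairs were chosen with earlier results of these data known, so their counts describe the split and do not test it. With the filter on low values applied within the 8 tumours, 533 genes were tested, Klrk1 was not among them and 0 were called. With samples rescaled to equal medians 0 genes were called (62 at unadjusted p under 0.05), and edgeR called 0 (174 at unadjusted p under 0.05).

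**Figure D1:**
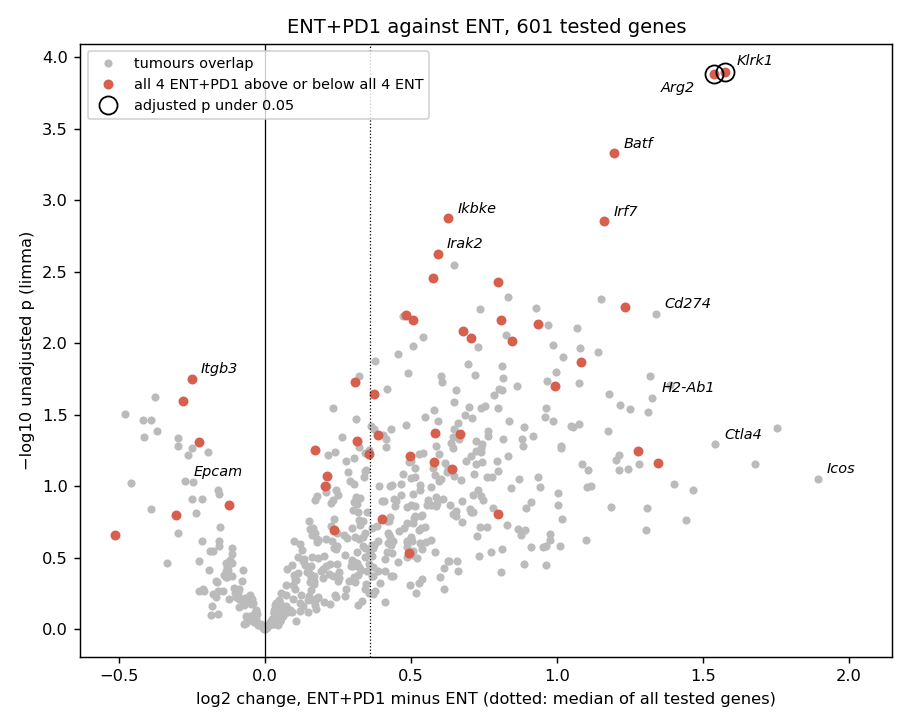
Each point is 1 of 601 tested genes, with the log2 change of ENT+PD1 minus ENT on the x axis and −log10 of the unadjusted limma p on the y axis. Red points are genes whose groups do not overlap. Klrk1 and Arg2, ringed, are the 2 genes with an adjusted p under 0.05, and the dotted line marks the median change of all genes, 0.36.

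Klrk1 encodes NKG2D, the activating receptor with which NK cells and CD8 T cells recognise stressed cells. It had values of 20.7, 13.9, 37.5 and 32.2 in ENT+PD1 1, 2, 5 and 6, against 5.83, 9.29, 11.1 and 5.11 in ENT 1 to 4. The groups did not overlap, and tumours 5 and 6 were the highest. The log2 change was 1.58 ± 0.33 (SE, limma adjusted p = 0.0392). The gene is weak. It exceeded a limit of 2 SD above the negative control mean in 3 of 4 ENT+PD1 tumours and in 0 of 4 ENT tumours, so the size of its change is not measured. It reached 20 in 3 ENT+PD1 tumours and in no ENT tumour, and passed the filter through samples of its high group and of other arms. Raising values under 20 to 20 left 0.41 (adjusted p = 0.161). The same limit on size holds for other tested genes named below with at most 1 ENT tumour above the negative controls, which are Klrb1, Hcst, Ncr1, Cd4, Irf7, Ifit3, Ifng, Icos, H2-Eb1 and Ciita. In bulk RNA, more NKG2D-bearing cells and more transcript per cell cannot be told apart, here and for each cell type gene below.

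The partners of NKG2D did not pass. Hcst, the DAP10 adaptor through which NKG2D signals, had 18.4, 9.80, 22.2 and 41.5 in ENT+PD1, against 13.6, 7.74, 7.06 and 11.1 in ENT (1.01 ± 0.49, limma adjusted p = 0.251). H60a, a ligand of NKG2D, had 40.2, 33.5, 86.6 and 112 in ENT+PD1, against 28.2, 32.5, 33.3 and 40.9 in ENT (0.83 ± 0.42, limma adjusted p = 0.251). In both genes ENT+PD1 5 and 6 lay above all ENT tumours and tumour 2 within them. Among 12 tested NK cell genes, 11 had higher means and 0 were called, with a median change of 0.53. Over all tested genes 82.5% had higher means and the median was 0.36. Of the NK cell genes 1 had an unadjusted p under 0.05, beside 17.8% of all tested genes. That gene was Klrb1, an NK cell lectin receptor, at 27.6, 14.7, 33.9 and 24.9 in ENT+PD1 and 15.6, 10.1, 14.1 and 13.6 in ENT (0.83 ± 0.26, limma adjusted p = 0.208). Its groups overlapped through ENT+PD1 2. No ENT tumour exceeded the negative control limit for Klrb1 or Hcst, and with values under 20 raised to 20 their changes were 0.39 and 0.30. Ncr1, which encodes NKp46, a defining NK receptor, had 12.6, 11.4, 11.7 and 20.8 in ENT+PD1 and 12.6, 16.3, 12.1 and 14.5 in ENT. The part of NK cell number in the change of Klrk1 was not tested.

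Arg2 encodes the mitochondrial arginase, which turns arginine into ornithine and urea. It had 60.9, 50.6, 117 and 103 in ENT+PD1, against 25.3, 26.3, 43.4 and 16.2 in ENT, with no overlap between the groups. The log2 change was 1.54 ± 0.32 (limma adjusted p = 0.0392), and it was above the negative controls in all 8 tumours. It was 1.06 in tumours 1 and 2 and 2.02 in tumours 5 and 6, each against ENT. Arg1, the cytosolic arginase of suppressive macrophages, had 311, 165, 600 and 862 in ENT+PD1, against 149, 191, 201 and 195 in ENT (1.14 ± 0.41, limma adjusted p = 0.216). ENT+PD1 2 lay within the ENT range. Nos2, the inducible nitric oxide synthase that draws on the same arginine, had 42.5, 31.8, 28.1 and 28.0 in ENT+PD1 and 30.1, 22.4, 37.3 and 29.8 in ENT. Its change was 0.12 ± 0.22 (limma adjusted p = 0.699) and turned to -0.24 under median rescaling.

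**Figure D2:**
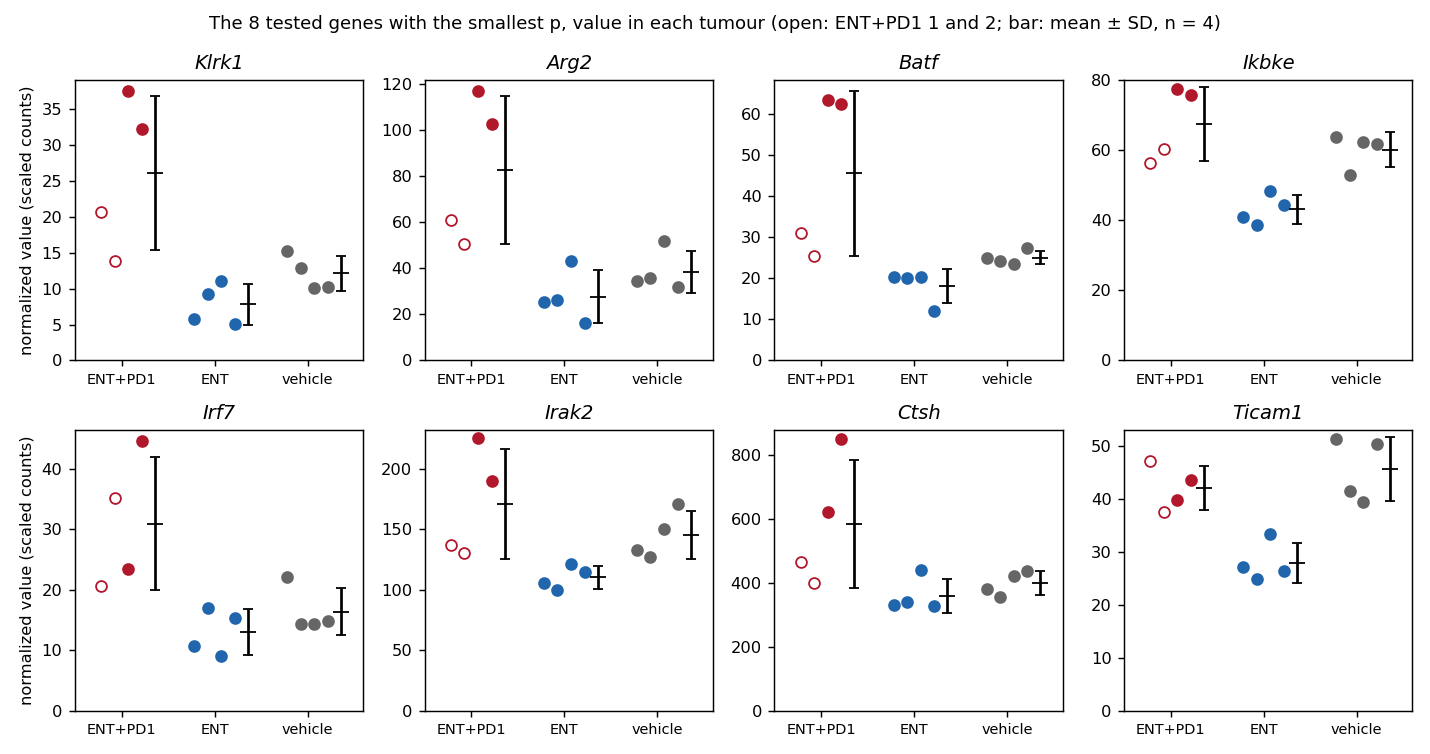
Normalized values of the 8 tested genes with the smallest p, in each ENT+PD1, ENT and vehicle tumour, on linear axes from 0. Open circles are ENT+PD1 1 and 2, and bars show the mean ± SD (n = 4). In Klrk1 and Arg2 all ENT+PD1 points lie above all ENT points.

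None of the genes next in order passed. Batf, a transcription factor of activated T cells and of a dendritic cell lineage, came closest to the threshold (limma adjusted p = 0.0937). It had 31.0, 25.3, 63.2 and 62.3 in ENT+PD1, against 20.4, 20.1, 20.2 and 11.9 in ENT, without overlap (1.20 ± 0.28). Cd69, an early activation marker of lymphocytes, had 55.1, 85.7, 163 and 180 in ENT+PD1, against 36.9, 55.0, 44.4 and 47.7 in ENT (1.23 ± 0.39, limma adjusted p = 0.208). The groups were separated by a margin of less than 1 unit, between ENT+PD1 1 and ENT 2. Over the 13 tested genes of T cell activation and fate, 10 had higher means, beside 82.5% of all tested genes. The median change was 0.23, below the 0.36 of all genes and at -0.13 under median rescaling. Irf4, induced by T cell receptor signals, had 9.19 and 12.2 in ENT+PD1 1 and 2 and 48.0 and 56.0 in ENT+PD1 5 and 6, against 3.41 to 20.2 in ENT. Il2ra, the interleukin-2 receptor alpha chain, had 33.3, 9.80, 146 and 200 in ENT+PD1 and 11.9 to 54.5 in ENT.

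On the deposited scaling, a few of the 25 genes with the smallest p were as high in ENT+PD1 1 and 2 as in 5 and 6. Txnip, a brake on thioredoxin and glucose uptake, had 776, 680, 702 and 702 in ENT+PD1, against 325, 559, 647 and 239 in ENT (0.80 ± 0.24, limma adjusted p = 0.208). The ENT+PD1 tumours were close together and above the scattered ENT tumours. Rora, the nuclear receptor ROR alpha, had 227, 205, 200 and 197 in ENT+PD1, against 131, 162, 190 and 119 in ENT (0.48 ± 0.16, limma adjusted p = 0.208). Ticam1 encodes TRIF, which links Toll-like receptors to interferon genes, and had 47.1, 37.6, 39.8 and 43.6 in ENT+PD1, against 27.2, 24.8, 33.3 and 26.4 in ENT (0.58 ± 0.17, limma adjusted p = 0.208). Neither gene overlapped between the groups. Their differences from ENT in tumours 1 and 2 were 0.82, 0.54 and 0.58 for Txnip, Rora and Ticam1, and in tumours 5 and 6 they were 0.77, 0.42 and 0.57.

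Genes of the interferon response gave a similar picture for some members only. Irf7, the master factor of type I interferon genes, had 20.7, 35.1, 23.4 and 44.6 in ENT+PD1, against 10.7, 17.0, 9.08 and 15.3 in ENT (1.16 ± 0.31, limma adjusted p = 0.168). The groups did not overlap, but only 1 ENT tumour exceeded the negative control limit, and with values under 20 raised to 20 the change was 0.56. Ifih1, the RNA sensor MDA5, had 81.6, 58.0, 84.3 and 88.2 in ENT+PD1 and 45.7, 60.4, 66.6 and 41.8 in ENT (0.54 ± 0.19, limma adjusted p = 0.208), and ENT+PD1 2 lay within the ENT range. Ifit3 and Ifit1 encode interferon-induced proteins that bind viral RNA or its sensors. Ifit3 had 18.4, 35.1, 23.4 and 19.7 in ENT+PD1, against 6.80, 20.9, 14.1 and 5.96 in ENT, and Ifit1 had 48.3, 38.4, 38.6 and 34.2 in ENT+PD1, against 29.1, 21.7, 28.2 and 33.2 in ENT. Over the list, 17 of 19 tested type I interferon genes had higher means, 3 had an unadjusted p under 0.05, and 4 were separated upward, beside 82.5%, 17.8% and 6.16% of all tested genes. Their median change of 0.17 was below the 0.36 of all genes, and it turned to -0.20 when medians were equalised and to -0.13 after quantile normalization, where Ifit1 also changed sign.

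The interferon gamma list had a larger median. All 14 tested members had higher means and 5 had an unadjusted p under 0.05, beside 82.5% and 17.8% of all tested genes. The median of 0.44 stayed above 0 under both rescalings (0.08 and 0.18). Ifng itself, the cytokine of T and NK cells, had 18.4, 12.2, 26.9 and 20.8 in ENT+PD1 and 7.77, 10.8, 14.1 and 21.3 in ENT (limma adjusted p = 0.454). Irf8, a factor of interferon responses and of dendritic cell development, had 43.7, 52.2, 105 and 142 in ENT+PD1, against 29.1, 41.8, 45.4 and 38.3 in ENT (0.99 ± 0.35, limma adjusted p = 0.208). ENT+PD1 1 fell just within the ENT range. Jak2, a kinase of the interferon gamma receptor, had 272 and 323 in ENT+PD1 1 and 2 and 456 and 468 in ENT+PD1 5 and 6, against 238 to 335 in ENT. Irf1, a factor induced by interferon gamma, had 535 to 726 in ENT+PD1 and 361 to 587 in ENT. Among chemokines that this cytokine induces, Cxcl10 had 21.8, 41.6, 46.8 and 73.7 in ENT+PD1 and 14.6 to 39.5 in ENT, and Cxcl9 had 10.3, 8.98, 24.6 and 36.3 in ENT+PD1 and 2.56 to 20.2 in ENT.

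**Figure D3:**
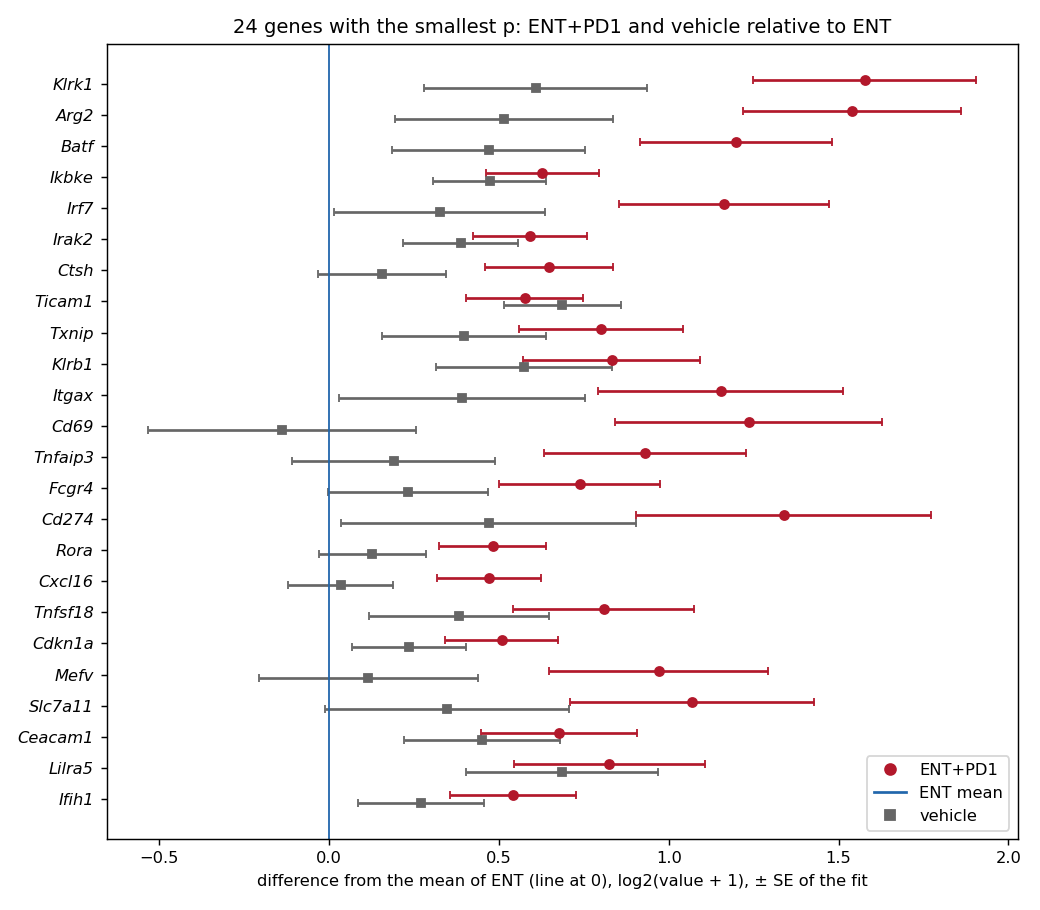
Among the 25 tested genes with the smallest p in ENT+PD1 minus ENT, 24 are plotted, with the difference from the ENT mean on the log2(value + 1) scale on the x axis. Red circles are ENT+PD1, grey squares vehicle and bars ± SE of the limma fit. Both differences share the same 4 ENT tumours, and the genes were chosen by the first of them.

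Kinases and brakes of innate signalling came next. Ikbke, the kinase IKK epsilon, had 56.3, 60.4, 77.2 and 75.8 in ENT+PD1, against 40.8, 38.7, 48.4 and 44.3 in ENT (0.63 ± 0.17, limma adjusted p = 0.168). Irak2, a kinase of Toll-like and interleukin-1 receptors, had 137, 131, 226 and 190 in ENT+PD1, against 106, 99.8, 121 and 115 in ENT (0.59 ± 0.17, limma adjusted p = 0.208). Both genes were separated between the groups. Tnfaip3, the A20 brake on NF-kB, had 540, 781, 1542 and 1589 in ENT+PD1, against 498, 558, 626 and 449 in ENT, and ENT+PD1 1 lay within the ENT range. Of 15 tested NF-kB and IKK genes, 13 had higher means, 4 had an unadjusted p under 0.05 and 3 were separated upward, again beside 82.5%, 17.8% and 6.16% of all tested genes. Relb, an NF-kB subunit, averaged 157 ± 54.0 in ENT+PD1 and 93.0 ± 15.8 in ENT, and Nfkbia, the inhibitor IkB alpha, 1044 ± 124 in ENT+PD1 and 806 ± 85.5 in ENT (SD, n = 4 each). Neither passed. The median changes were 0.34 for this list and 0.39 for 19 Toll-like receptor genes, near the 0.36 of all genes. Under median rescaling they were -0.02 and 0.02, and under quantile normalization -0.07 and -0.01.

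Genes of the PD-1 axis were high in ENT+PD1 5 and 6 only. Pdcd1, which encodes the antibody's target, had 12.6, 4.08, 60.9 and 69.5 in ENT+PD1, against 6.80, 12.4, 16.1 and 11.1 in ENT, and was too weak across the series to be tested. Cd274, which encodes PD-L1, had 43.7, 48.2, 146 and 185 in ENT+PD1, against 35.0, 33.3, 52.4 and 21.3 in ENT (1.34 ± 0.43, limma adjusted p = 0.208). Pdcd1lg2, which encodes PD-L2, had 17.2, 8.98, 60.9 and 50.9 in ENT+PD1, against 17.5, 15.5, 23.2 and 19.6 in ENT. In all 3 genes ENT+PD1 5 and 6 exceeded every ENT tumour and ENT+PD1 1 and 2 lay within or below the ENT range. The mean change of Pdcd1lg2, 0.49 ± 0.47, turned to -0.55 in ENT+PD1 1 and 2 alone and to -0.01 under quantile normalization.

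Other inhibitory and costimulatory receptors followed the same split. Ctla4, an inhibitory receptor of activated and regulatory T cells, had 40.2, 11.4, 151 and 187 in ENT+PD1, against 19.4, 6.19, 40.3 and 32.4 in ENT (1.54 ± 0.74, limma adjusted p = 0.251). Lag3, another brake on T cells, had 65.5, 71.8, 144 and 125 in ENT+PD1 and 42.8 to 77.7 in ENT. Icos, a costimulator of activated T cells, had 21.8, 8.16, 150 and 202 in ENT+PD1, against 9.72, 10.1, 35.3 and 6.82 in ENT (1.89 ± 1.05, limma adjusted p = 0.284). In each of the 3 genes ENT+PD1 1 and 2 overlapped the ENT tumours. Of 13 tested checkpoint genes, 12 had higher means, 3 had an unadjusted p under 0.05 and 0 were separated, with a median of 0.64. Over all tested genes the shares were 82.5%, 17.8% and, for separation upward, 6.16%, and the median was 0.36. Of 10 costimulation genes, 10 had higher means and 1 had an unadjusted p under 0.05, with a median of 0.65. That gene, Tnfsf18, the ligand of GITR, did not follow the split: it had 43.7, 54.7, 60.9 and 68.5 in ENT+PD1, above the 38.9, 31.7, 35.3 and 23 in ENT (0.81 ± 0.27, limma adjusted p = 0.208).

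T cell genes were high beside these receptors in ENT+PD1 5 and 6. Cd3g, a chain of the T cell receptor complex, had 14.9, 12.2, 97.1 and 126 in ENT+PD1, against 10.7, 14.7, 25.2 and 13.6 in ENT. Cd4, the coreceptor of helper T cells, had 8.04, 8.16, 32.8 and 52.9 in ENT+PD1, against 9.72, 9.29, 8.07 and 11.1 in ENT. Foxp3, of regulatory T cells and not tested, had 6.89, 8.16, 22.2 and 41.5 in ENT+PD1, against 5.83, 1.55, 8.07 and 5.11 in ENT. All 3 were high in ENT+PD1 5 and 6 alone. Summed over 17 measured T cell genes, the level was 449 to 1158 in ENT+PD1, 397 to 538 in ENT and 454 to 542 in vehicle. Of the 12 tested, 11 had higher means and 0 had an unadjusted p under 0.05, beside 82.5% and 17.8% of all tested genes. The median change was 0.86, made up of -0.13 in ENT+PD1 1 and 2 and 1.80 in 5 and 6. The CD8 chain Cd8a had 4.60, 2.45, 10.5 and 5.19 in ENT+PD1, against 1.94, 4.64, 1.01 and 3.41 in ENT, and neither Cd8a nor Cd8b1 exceeded the negative control limit in any of the 8 tumours. The same held for the killing proteins Gzmb and Prf1. The part of T cell number in the checkpoint values was not tested.

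MHC class II genes gave the highest values relative to ENT of the 25 lists in ENT+PD1 5 and 6. H2-Ab1, the class II beta chain of the A molecule, had 1625, 1514, 7988 and 10264 in ENT+PD1, against 1188, 1326, 2829 and 1143 in ENT (1.33 ± 0.54, limma adjusted p = 0.232). Cd74, the invariant chain that guides class II to its peptides, had 3025, 3436, 15858 and 19109 in ENT+PD1, against 2525, 3123, 5505 and 2481 in ENT (1.22 ± 0.51, limma adjusted p = 0.240). H2-Dma, a chain of the peptide exchange factor, had 125, 121, 559 and 757 in ENT+PD1, against 79.7, 111, 188 and 97.1 in ENT (1.32 ± 0.50, limma adjusted p = 0.224). In each, ENT+PD1 5 and 6 stood above all ENT tumours, and ENT+PD1 1 and 2 lay below ENT 3. All 9 tested members had higher means and 6 had an unadjusted p under 0.05, but 0 were separated, beside 82.5%, 17.8% and 6.16% of all tested genes. Their median change of 1.22 came from 0.04 in ENT+PD1 1 and 2 and 2.43 in 5 and 6, and it was 0.85 under median rescaling and 0.78 under quantile normalization. Ciita, the coactivator on which class II transcription depends, had 10.3, 13.9, 33.9 and 51.9 in ENT+PD1, against 12.6, 10.1, 22.2 and 10.2 in ENT (0.75 ± 0.47, limma adjusted p = 0.322).

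Class II genes share a promoter module, in which an X box bound by RFX factors lies upstream of a Y box bound by NF-Y, and CIITA docks on both. The promoters of 5 class II genes are shown because these genes were high together in ENT+PD1 5 and 6 or, for H2-DMb1 and H2-Ob, were not. H2-Aa, H2-DMb1, H2-DMb2 and H2-Ob were named after their values were seen. Each line gives 100 bases, from RefSeq on build GRCm38.p6, 5′ to 3′ on the strand of the gene, from 120 to 21 bases before the annotated start. Capitals mark the letters GNAACNNAT of an X core and ATTGG of a Y box read in the gene's direction.
H2-Eb1 (chr17:34305747-34305846, plus strand): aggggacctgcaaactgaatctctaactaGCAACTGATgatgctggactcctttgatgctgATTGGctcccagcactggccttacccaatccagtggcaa
H2-DMb1 (chr17:34153071-34153170, plus strand): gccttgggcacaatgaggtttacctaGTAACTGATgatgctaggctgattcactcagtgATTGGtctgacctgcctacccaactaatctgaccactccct
H2-Ob (chr17:34238785-34238884, plus strand): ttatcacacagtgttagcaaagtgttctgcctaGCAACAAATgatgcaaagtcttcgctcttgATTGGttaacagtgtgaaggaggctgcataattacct
H2-DMb2 (chr17:34145129-34145228, plus strand): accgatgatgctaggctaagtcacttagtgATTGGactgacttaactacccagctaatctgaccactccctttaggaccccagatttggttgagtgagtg
H2-Aa (chr17:34287844-34287943, minus strand): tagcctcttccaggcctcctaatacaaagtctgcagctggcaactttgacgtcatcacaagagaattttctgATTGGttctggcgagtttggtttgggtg
H2-Eb1, H2-DMb1 and H2-Ob held both, with 23, 24 and 21 bases between them. H2-Aa and H2-DMb2 held ATTGG without a match to GNAACNNAT. Of 2 promoter entries for H2-Dma, not printed, 1 held the X core alone and 1 held ATTGG alone. The letters were set with these sequences in view, and both strands were searched. GNAACNNAT was found in 2602 of 32851 mouse promoters of the table (7.92%), ATTGG in 12289 (37.4%), and ATTGG at 10 to 30 bases after the X core in 51 (0.155%). The motifs do not overlap in these promoters, and a match in letters is not a measured binding site. Lack of a match to GNAACNNAT does not show that an X box is absent.

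RNA values of these genes are set beside the motifs as a description. Whether having both motifs goes with a pattern of RNA was not tested, since genes and letters were chosen with values and sequences in view. H2-Eb1, the beta chain of the E molecule, had 18.4, 18.8, 67.9 and 60.2 in ENT+PD1, against 8.74, 9.29, 33.3 and 13.6 in ENT (1.25 ± 0.53, limma adjusted p = 0.240). H2-DMb1, a beta chain of the exchange factor, had 5.74, 7.35, 11.7 and 9.34 in ENT+PD1 and 10.7, 3.87, 13.1 and 9.37 in ENT, under the negative control limit in all 8 tumours and not tested. H2-Ob, the beta chain of the DO modulator, had 59.7, 45.7, 73.7 and 43.6 in ENT+PD1 and 44.7, 31.0, 39.3 and 48.6 in ENT (0.42 ± 0.30, limma adjusted p = 0.373, at -0.06 under quantile normalization). Of the genes with ATTGG alone, H2-Aa, the class II alpha chain of the A molecule, had 3845, 3498, 18392 and 24989 in ENT+PD1, against 2775, 3170, 6625 and 2787 in ENT. H2-DMb2 had 27.6, 28.6, 145 and 176 in ENT+PD1, against 24.3, 31.7, 51.4 and 17.9 in ENT. High values in ENT+PD1 5 and 6 were thus shared by H2-Eb1, H2-Aa and H2-DMb2, with 2.12, 2.59 and 2.42 log2 units over ENT, and were smaller in H2-Ob, with 0.48.

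**Figure D4:**
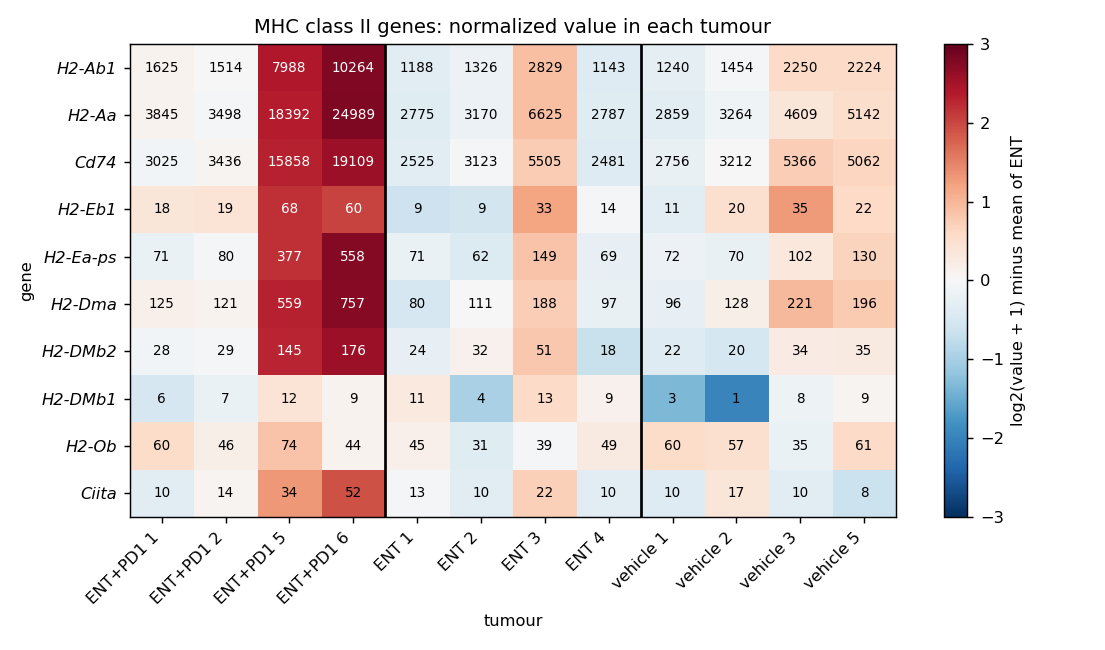
MHC class II genes in the 12 tumours, ENT+PD1 left, ENT in the middle and vehicle right. Numbers are normalized values, and colour is log2(value + 1) minus the ENT mean. ENT+PD1 5 and 6 are red across H2-Ab1 to H2-DMb2, while ENT+PD1 1 and 2 are close to ENT, and ENT 3 is the highest of ENT in the same genes.

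MHC class I genes, which present peptides to CD8 T cells, differed less. H2-D1, a classical heavy chain, had 3631, 3426, 5469 and 7281 in ENT+PD1 and 3219 to 3697 in ENT. H2-K1, the other classical heavy chain, had 1165, 1240, 1507 and 1916 in ENT+PD1, above 1077, 1076, 1145 and 1079 in ENT (0.39 ± 0.18, limma adjusted p = 0.249). Psmb8, an immunoproteasome subunit, averaged 702 ± 234 in ENT+PD1 and 507 ± 45.2 in ENT (SD, n = 4 each). The list had 13 of 14 members with higher means and 3 at an unadjusted p under 0.05, beside 82.5% and 17.8% of all tested genes. Its median of 0.36 was that of all genes, and it was -0.001 when medians were equalised and -0.020 after quantile normalization.

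Genes of cells that carry class II were also high in ENT+PD1 5 and 6. Itgax, which encodes the integrin CD11c of dendritic cells and macrophages, had 24.1, 40.0, 92.5 and 102 in ENT+PD1, against 15.6, 20.9, 34.3 and 30.7 in ENT (1.15 ± 0.36, limma adjusted p = 0.208). Itgae, the integrin CD103, had 26.4, 24.5, 97.1 and 70.6 in ENT+PD1, against 15.6, 10.8, 40.3 and 22.1 in ENT. Xcr1, a receptor found on cross-presenting dendritic cells, had 32.2, 18.0, 41.0 and 29.1 in ENT+PD1 and 18.5, 8.51, 16.1 and 16.2 in ENT, and only ENT+PD1 2 overlapped. The 9 tested dendritic cell genes all had higher means, 5 with an unadjusted p under 0.05, beside 82.5% and 17.8% of all tested genes. Their median was 0.97 (0.06 in ENT+PD1 1 and 2, 1.93 in 5 and 6). Summed over 11 measured genes the level was 1005 to 3616 in ENT+PD1, 1101 to 1258 in ENT and 796 to 1359 in vehicle.

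At the median, macrophage and monocyte genes lay below the ENT mean in ENT+PD1 1 (-0.24) and close to it in ENT+PD1 2 (-0.0007). They lay above it in ENT+PD1 5 and 6 (1.10 and 1.58). Ccr2, which brings monocytes from blood to tissue, had 48.3, 50.6, 142 and 300 in ENT+PD1, against 36.9, 33.3, 62.5 and 27.3 in ENT (1.39 ± 0.54, limma adjusted p = 0.224). Cybb, the catalytic subunit of the phagocyte oxidase, had 206, 240, 626 and 775 in ENT+PD1, against 169, 263, 217 and 225 in ENT. Itgam, the integrin CD11b of myeloid cells, had 62.0, 89.8, 157 and 259 in ENT+PD1 and 59.3 to 80.9 in ENT. All 16 tested members had higher means, beside 82.5% of all tested genes, and 4 had an unadjusted p under 0.05, beside 17.8%. The median of 0.58, with 0.36 over all genes, was made up of -0.10 in ENT+PD1 1 and 2 and 1.28 in 5 and 6. The sum over 17 measured genes was 5307 to 16546 in ENT+PD1, 5969 to 6608 in ENT and 4733 to 8015 in vehicle. Receptors for antibody tails, which macrophages carry, behaved alike: Fcgr2b, the inhibitory one, had 988, 841, 3044 and 4186 in ENT+PD1 and 808 to 1167 in ENT, and Fcgr3, an activating one, had 117, 131, 350 and 445 in ENT+PD1 and 128 to 150 in ENT. Fcer1g, the signalling chain of the activating receptors, lay higher in all 4 ENT+PD1 tumours, at 311, 269, 520 and 626 against 221 to 265 in ENT (0.71 ± 0.24, limma adjusted p = 0.208). Fcgr4, an activating receptor, had 51.7, 85.7, 124 and 120 in ENT+PD1 and 46.4 to 66.5 in ENT, and ENT+PD1 1 overlapped. The part of dendritic cell and macrophage number in the class II values was not tested.

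Epithelial and tumour genes lay lower where these were higher. Cdh1, the adhesion protein E-cadherin, had 1510, 1577, 1242 and 980 in ENT+PD1, against 1473 to 1596 in ENT (-0.25 ± 0.14, limma adjusted p = 0.290), and Epcam, given above, had -0.28 ± 0.16 (limma adjusted p = 0.288). Both were low in ENT+PD1 5 and 6 only. Erbb2, the receptor HER2, had 393, 510, 391 and 376 in ENT+PD1 and 389, 444, 476 and 393 in ENT (-0.03 ± 0.17, limma adjusted p = 0.902). Of 9 tested members 6 had lower means, beside 105 of all 601 tested genes. An unadjusted p under 0.05 was reached by 0 members, beside 17.8% higher and 1.66% lower of all tested genes. Itgb4, whose values are given further below, lay under ENT in all 4 ENT+PD1 tumours (1 member, beside 0.998% of all tested genes). The median over the 9 members was -0.04 (-0.20 in ENT+PD1 5 and 6, 0.06 in 1 and 2, and -0.41 under median rescaling). The sum over them was 10496 to 15257 in ENT+PD1, 14182 to 15616 in ENT and 14009 to 16795 in vehicle. Spp1, the secreted osteopontin and the strongest gene named here, had 51650, 47225, 29603 and 26011 in ENT+PD1, against 41935 to 52325 in ENT.

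**Figure D5:**
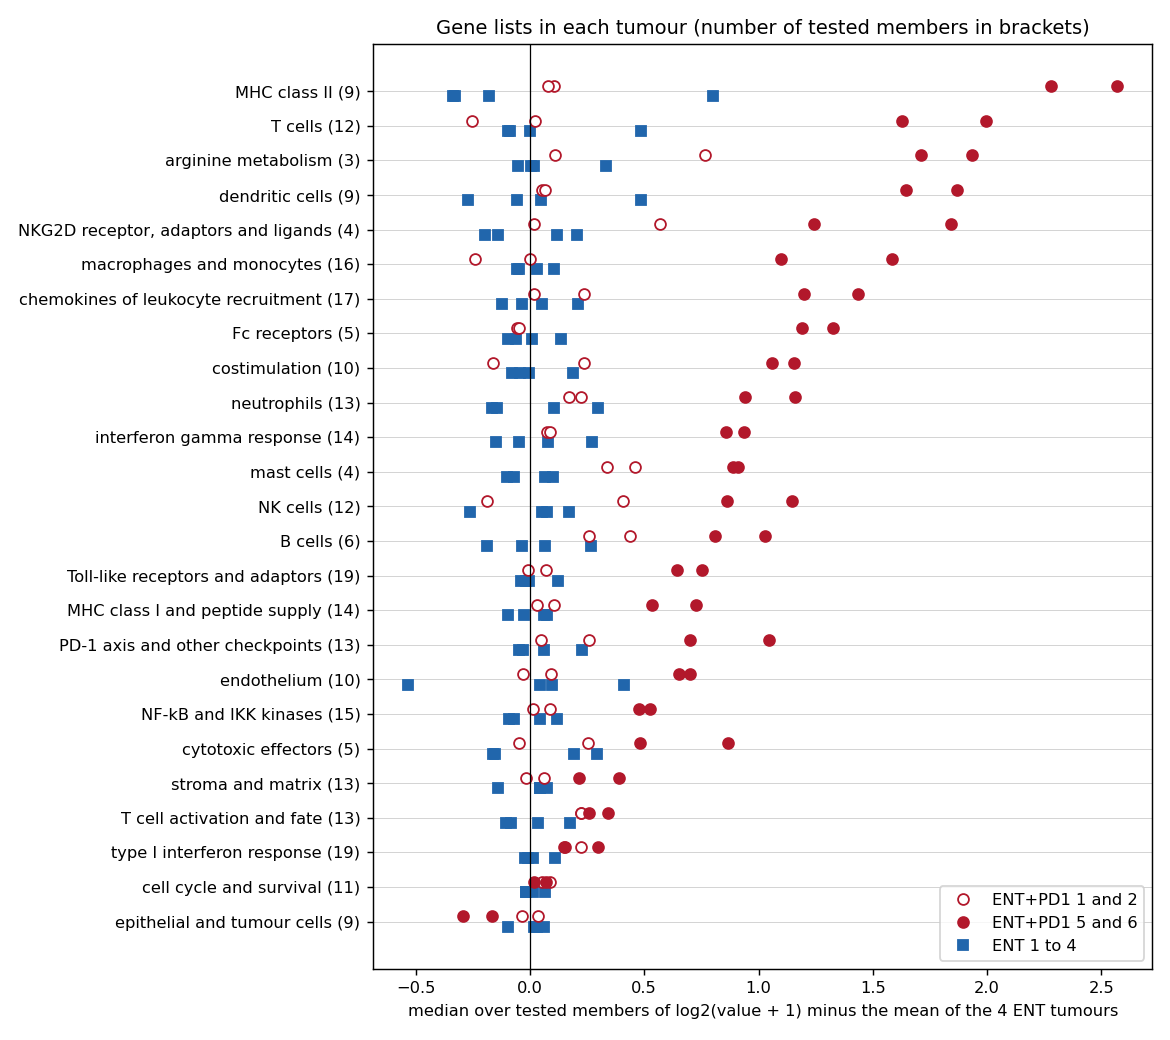
For each gene list, the median over its tested members of log2(value + 1) minus the ENT mean, in each tumour. Filled red circles are ENT+PD1 5 and 6, open circles ENT+PD1 1 and 2 and blue squares ENT. For MHC class II, ENT+PD1 5 and 6 lie at 2.28 and 2.57, ENT+PD1 1 and 2 at 0.11 and 0.08, and ENT between -0.34 and 0.80.

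Granulocytes, mast cells, B cells and chemokines gave further genes that did not pass. Among 13 tested neutrophil genes, 12 had higher means and 3 had an unadjusted p under 0.05, beside 82.5% and 17.8% of all tested genes. Their median was 0.61, but 0.01 under quantile normalization. The level summed over 15 measured neutrophil genes ran the other way in ENT+PD1 5 and 6, at 32458 and 30373, with 43665 and 45007 in ENT+PD1 1 and 2, 36923 to 42589 in ENT and 36368 to 43149 in vehicle. Strong members weigh most in such a sum. At the median over tested members, ENT+PD1 5 and 6 lay 1.16 and 0.94 log2 units above the ENT mean. ENT+PD1 1 and 2 lay 0.22 and 0.17 above it. Cxcl2, a chemokine that draws neutrophils, had 373, 579, 1086 and 1238 in ENT+PD1 and 325 to 542 in ENT, and its receptor Cxcr2 57.5, 44.1, 111 and 75.8 in ENT+PD1 and 35.0 to 51.1 in ENT. Csf3r, the G-CSF receptor, had 35.6 to 91.3 in ENT+PD1 and 31.1 to 51.1 in ENT. Of the mast cell genes, 4 of 4 tested had higher means, beside 82.5% of all tested genes, with a median of 0.55. Tpsab1, a tryptase, had 91.9, 100, 125 and 136 in ENT+PD1, above 72.9, 68.9, 65.5 and 73.3 in ENT (0.67 ± 0.31, limma adjusted p = 0.249), and Cma1, a chymase, had 37.9, 36.7, 71.4 and 202 in ENT+PD1, above 29.1, 26.3, 27.2 and 21.3 in ENT (1.35 ± 0.70, limma adjusted p = 0.261). Both were separated. Vehicle tumours averaged 132 ± 69.3 for Tpsab1 and 39.7 ± 15.6 for Cma1 (SD, n = 4).

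B cell genes had 6 of 6 tested members with higher means, beside 82.5% of all tested genes, and a median of 0.67. Of 15 members, 9 were too weak to test. Cd37, a tetraspanin of B and other leukocytes, had 56.3, 53.1, 153 and 247 in ENT+PD1, above 39.8, 47.2, 38.3 and 43.5 in ENT (1.28 ± 0.63, limma adjusted p = 0.251). Blnk, a B cell receptor adaptor, had 142, 177, 195 and 210 in ENT+PD1 and 91.2 to 156 in ENT. Of 17 leukocyte-recruiting chemokines, 14 had higher means and 3 had an unadjusted p under 0.05, near the 82.5% and 17.8% of all tested genes. Their median was 0.72, beside 0.36 over all genes. Cxcl16, which draws CXCR6-bearing T cells, had 646, 603, 926 and 924 in ENT+PD1, against 494, 514, 577 and 614 in ENT (0.47 ± 0.15, limma adjusted p = 0.208). Ccl3, a macrophage chemokine, had 148, 183, 351 and 308 in ENT+PD1 and 132 to 162 in ENT. Ccl20, the ligand of CCR6, had 22.98, 32.7, 46.8 and 36.3 in ENT+PD1 and 10.7 to 29.2 in ENT.

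Of the cytotoxic genes strong enough to test, none passed. Tnf, an inflammatory cytokine of macrophages and T cells, had 66.6, 142, 181 and 164 in ENT+PD1 and 56.4, 101, 85.7 and 63.9 in ENT (0.78 ± 0.32, limma adjusted p = 0.232). Gzma, a granzyme of NK and T cells, had 46.0, 17.1, 41.0 and 31.1 in ENT+PD1 and 22.4, 14.7, 26.2 and 27.3 in ENT. Only ENT+PD1 1 overlapped ENT for Tnf, and only ENT+PD1 2 for Gzma.

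The remaining genes of the 25 were of mixed function. Cdkn1a, the cell cycle inhibitor p21, had 657, 583, 837 and 983 in ENT+PD1, above 523, 531, 582 and 476 in ENT (0.51 ± 0.17, limma adjusted p = 0.208). Ceacam1, an adhesion receptor that inhibits T and NK cells, had 74.7, 88.2, 110 and 86.1 in ENT+PD1, above 54.4, 64.2, 70.6 and 37.5 in ENT (0.68 ± 0.23, limma adjusted p = 0.208). Both were separated, and the next 5 were not. Ctsh, a lysosomal protease, had 465, 398, 621 and 850 in ENT+PD1 and 327 to 439 in ENT, and Mefv, which encodes pyrin, had 35.6, 41.6, 122 and 104 in ENT+PD1 and 26.4 to 39.3 in ENT. Slc7a11, the cystine importer, had 59.7, 24.5, 91.3 and 93.4 in ENT+PD1 and 20.4 to 36.3 in ENT. Lilra5, an activating receptor of monocytes, had 25.3, 23.7, 48.0 and 52.9 in ENT+PD1 and 11.6 to 30.2 in ENT, and Tnfaip3 was given above. Among these 25 genes, 14 were separated. They were chosen by this contrast, so the count is a description, beside 6.16% of all tested genes.

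Lower values were few and small on the deposited scaling only. The 6 genes below ENT in every ENT+PD1 tumour (0.998% of those tested) included Itgb3, Hmgb1, Anp32b, Itgb4 and Ncam1, named after their values were seen, and limma called 0 of the 6 (10 of the tested genes were lower at unadjusted p under 0.05). With equal medians 21 genes were below ENT in every ENT+PD1 tumour, and after quantile normalization 22. Itgb3, the integrin beta 3 chain, had 172, 202, 217 and 170 in ENT+PD1, against 229, 221, 229 and 223 in ENT (-0.25 ± 0.10, limma adjusted p = 0.224). Hmgb1, a chromatin protein that acts as an alarm signal outside the cell, had 481, 580, 496 and 533 in ENT+PD1, against 657, 646, 594 and 640 in ENT (-0.28 ± 0.12, limma adjusted p = 0.240). Their differences from ENT were alike in ENT+PD1 1 and 2 (-0.27 and -0.26) and in 5 and 6 (-0.23 and -0.30). Itgb4, an epithelial integrin chain, had 1189, 1229, 1141 and 788 in ENT+PD1 and 1309 to 1340 in ENT. Ncam1, a neural adhesion protein, had 25.3 to 28.7 in ENT+PD1 and 29.2 to 46.6 in ENT. Birc5, which encodes survivin, of dividing cells, had 108, 134, 85.4 and 93.4 in ENT+PD1, against 150, 124, 133 and 179 in ENT (-0.48 ± 0.21, limma adjusted p = 0.248), and Trp53, the tumour suppressor p53, had 110, 152, 162 and 135 in ENT+PD1 and 149 to 183 in ENT. Under median rescaling the changes were -0.85 for Birc5, -0.88 for Ncam1, -0.62 for Trp53 and -0.65 for Hmgb1, and none passed (limma adjusted p of 0.393 to 0.401).

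ENT+PD1 against vehicle shares its 4 ENT+PD1 tumours with the comparison above, and ENT against vehicle shares its 4 ENT tumours, so the values stand side by side without a joint test. Limma called 0 genes in ENT+PD1 minus vehicle (60 at unadjusted p under 0.05, 9.98%; edgeR and DESeq2 were not run on it here) and 0 in ENT minus vehicle (28, 4.66%). Klrk1 averaged 26.0 ± 10.7 in ENT+PD1, 7.83 ± 2.84 in ENT and 12.1 ± 2.43 in vehicle (SD, n = 4 each). It was under the negative control limit in all 4 ENT and all 4 vehicle tumours, so no size is given for either difference from vehicle. Arg2 averaged 82.8 ± 32.1 in ENT+PD1, 27.8 ± 11.3 in ENT and 38.6 ± 9.12 in vehicle, which is 1.02 in ENT+PD1 minus vehicle and -0.52 in ENT minus vehicle. Ikbke averaged 67.4 ± 10.6 in ENT+PD1, 43.1 ± 4.25 in ENT and 60.1 ± 4.92 in vehicle, which is 0.15 and -0.47. Cd69 averaged 121 ± 59.8 in ENT+PD1, 46.0 ± 7.49 in ENT and 45.3 ± 23.9 in vehicle, which is 1.37 and 0.14. For Ikbke the ENT+PD1 and vehicle tumours overlapped, and for Arg2 the lowest ENT+PD1 tumour, at 50.6, lay just under vehicle 3, at 52.1.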

How the data were processed

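RNA was counted with nCounter probes in 24 tumour samples. The deposited table holds normalized signal on a linear scale per the file headers and values: every sample has the same housekeeping geometric mean (346.9), and dividing by 1 factor per sample returned whole counts for 100% of values above 1 (tolerance 0.05), with 82 values at exactly 1. The authors' normalization steps were not given in the material used here. Limma is named without a version per the submitters' processing notes. The series title names a cancer immune panel and the label protocol a myeloid panel, and genes were used as listed.

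Endogenous genes at 20 or more in at least 4 of 24 samples were taken as log2(value + 1) and fitted with limma 3.58.1 (R 4.3.3; lmFit, eBayes with trend) over 22 samples in 6 groups, with Benjamini-Hochberg adjustment over 601 genes. A positive change means higher in ENT+PD1. Technical measures had two-sided exact permutation tests (scipy 1.17.1). Alternatives used edgeR 4.0.16 and DESeq2 1.42.0 on the recovered counts, other scalings, filters and samples. Scripts were tested on simulated data. Named genes were those called, the 25 with the smallest p, up to 4 members per list in order of p, a set of PD-1, T cell, NKG2D, arginine and class II genes, and others where said. The members, the lists and the split by title form were chosen with earlier results of these data known. Depth was 321192 to 452750 counts per sample in ENT+PD1 and 365318 to 444155 in ENT. Promoters came from RefSeq. H2-Ab1, H2-Ea-ps and Ciita promoters were not analysed here, and a few genes that the rule names are not reported here.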

Additional observations from a re-analysis of the deposited data

Results flagged for a closer look

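In 9 of 180 groups examined (90 genes, ENT+PD1 and ENT each), 1 tumour lay apart from the other 3 of its group, by Dixon's gap-to-range ratio on the log2 scale. Chance flags about 1 in 20 groups. In ENT+PD1, Itgb4 was 788 in tumour 6 against 1141 to 1229 in the others, and Erbb2 was 510 in tumour 2 against 376 to 393. ENT 3 was the highest of ENT in 5 genes: H2-Ab1 at 2829 against 1143 to 1326, H2-Aa at 6625 against 2775 to 3170, H2-K1 at 1145 against 1076 to 1079, Ctsh at 439 against 327 to 341 and Epcam at 5971 against 5761 to 5795. Batf was 11.9 in ENT 4 against 20.1 to 20.4, and Arg1 was 149 in ENT 1 against 191 to 201.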

How the results depend on the processing

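The 2 calls stayed at 2 with a pseudocount of 5, with no filter and with housekeeping genes included. The count was 0 under median rescaling, quantile normalization, a floor of 20, a filter within the 8 samples, the 8 samples alone, the 12 first-cartridge samples, edgeR, and, as added after seeing the data, edgeR with TMM and DESeq2 with its own size factors. It was 53 in DESeq2 on the deposited scaling and 174 with sample weights, whose estimation did not converge. With ENT+PD1 1 and 2 only it was 0 and with 5 and 6 only 226, pairs chosen with earlier results of these data known. Leaving out 1 tumour gave 0 to 25. In each setting that tested them, the 25 genes with the smallest p kept their direction. Of the 601 tested genes, non-overlapping ones numbered 43, with 31 under median rescaling (10 higher) and 33 under quantile normalization (11 higher). They numbered 82 with ENT+PD1 1 and 2 only, 410 with 5 and 6 only, and 46 to 127 with 1 tumour left out. The last range included 89 without ENT 3, 102 without ENT+PD1 1 and 127 without ENT+PD1 2. Smaller groups fail to overlap more easily, so counts with tumours left out are not comparable with the 43 of all 8 samples. With ENT+PD1 1 and 2 only, the sign turned for Pdcd1lg2 (-0.55), Cd3g (-0.16), Cd4 (-0.20), Il2ra (-0.18), H2-DMb2 (-0.050), Ciita (-0.12), Fcgr2b (-0.065), Fcgr3 (-0.14), Epcam (0.0049), Erbb2 (0.080) and Spp1 (0.12). Nos2 turned to -0.24 under median rescaling, -0.46 under quantile normalization, -0.15 in edgeR with TMM, -0.16 in DESeq2 with its own size factors, -0.068 with ENT+PD1 5 and 6 only, and -0.0046 and -0.0096 without ENT 2 or ENT+PD1 1. Under quantile normalization Pdcd1lg2 (-0.011), H2-Ob (-0.064) and Ifit1 (-0.017) turned too, and Erbb2 did without ENT 3 (0.023) or ENT+PD1 6 (0.014), its range with 1 tumour left out being -0.13 to 0.023. The cause was not tested. With the replicate number as a block the count was 0 (42 at unadjusted p under 0.05) and Erbb2 was 0.067. The titles do not say that numbers pair samples, only 1 and 2 occur in both groups, and the deviations of same-numbered samples correlated at 0.23 and 0.21. Depth limits the weak genes: Klrk1, Foxp3, the CD8 chains and Gzmb lie near the negative controls in most of the 8 tumours. Pdcd1 does so outside ENT+PD1 5 and 6, while Gzma exceeds the negative control limit in all 8.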
